A study of Mus musculus with 2 samples.

Results

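The genes described here are 10 members of the Notch pathway, out of 20140 genes in the tables. They are taken by name, and the rule sets no threshold on their values: the receptors Notch1, Notch2, Notch3 and Notch4, the ligands Dll4, Jag1 and Jag2, and the target genes Hes1, Hey1 and Heyl. All 10 had a row in every table and a value above 0 in both libraries. Both groups were female C57BL6/J mice, 14 weeks old, with no genetic change named, and their salivary glands were taken. In the ligated group a metal clip had closed the large excretory ducts of the sublingual and submandibular glands for 14 days. In the mock group the ducts had been exposed but not clipped, with the same 14 days of healing. Each group was 1 droplet library, made from 2 glands after bead depletion of EpCAM+ epithelial cells and Ter119+ red cells and removal of dead cells. With 1 library per group there is no replicate spread, no difference carries a test, library and surgery cannot be told apart, and every value describes these 2 libraries.

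Notch receptors sit on the cell surface and are switched on by Delta-like and Jagged ligands on a neighbouring cell. Binding lets proteases cut the receptor, and the released intracellular part enters the nucleus, joins the DNA-binding protein RBPJ and raises the transcription of Hes and Hey genes, which encode repressors. In blood vessels the pathway is known for setting arterial identity, for limiting endothelial sprouting through Dll4, and for keeping the contractile mural cells that wrap vessels through Notch3 and Jag1.

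Values are means over the cells of a cluster, in UMIs of the gene per 10000 UMIs of the cell (a UMI, or unique molecular identifier, marks 1 captured RNA molecule). A mean over a cluster cannot tell fewer expressing cells from less RNA per cell. The tables cover 12 clusters of all cells and 5 clusters of a subset named for Pdgfra, Pdgfrb and Gli1, and the subset's cells are also in the clusters of all cells. From the means, 11406 ligated and 4199 mock cells were recovered, and the libraries were compared in the 9 clusters of all cells and the 3 of the subset that held at least 50 cells of each. Recovered UMI totals per cell, which favour deep cells, had medians from 982.5 to 14253.5 across the compared clusters. The difference is log2((ligated + 0.1)/(mock + 0.1)), which understates changes of low genes. A gene is said to have risen or fallen only where this difference was at least 1 in size and the higher of both values was at least 0.5. Pairs of a gene and a cluster whose higher value reached 0.5 are called measurable. Markers of cell types other than a cluster's own were also present. Their median level, as a percentage of the library mean, is called the other-type share, and it was larger in the ligated than in the mock cells of every compared cluster. It was 9.56% ligated and 3.34% mock in cluster 0, and 22.8% and 10.9% in cluster 6. In mock cluster 10 it was 0, as only 22 of 46 markers were above 0. The summed level of such markers was instead higher in mock in some clusters. These were cluster 2 (21.5 mock and 17.6 ligated), cluster 5 (47.4 and 44.4), cluster 6 (75.5 and 66.0) and subset cluster 3 (27.4 and 6.05). In the other compared clusters that sum was higher in the ligated library. Where a difference is given after subtraction, the other-type share of the gene's own library mean was first taken off each value. Otherwise its part in a result was not tested.

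The receptors, ligands and targets were mostly genes of vessels. By their markers, cluster 0 was capillary endothelial-like (2948 ligated and 2363 mock cells), cluster 4 was endothelial-like with arterial and lymphatic genes (531 and 226), cluster 6 was mural-like, holding pericyte and smooth muscle genes (420 and 161), and cluster 3 was fibroblast-like (1149 and 188). Over both libraries together, Notch1, Notch4, Dll4, Jag2 and Hey1 were highest in cluster 4 and next in cluster 0. Notch3, Jag1, Hes1 and Heyl were highest in cluster 6, and Notch2 was highest in cluster 3. In natural killer-like cluster 1 and T cell-like cluster 2 no member reached 0.5 in either library. The level map shows this layout in both libraries.

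**Figure D1:**
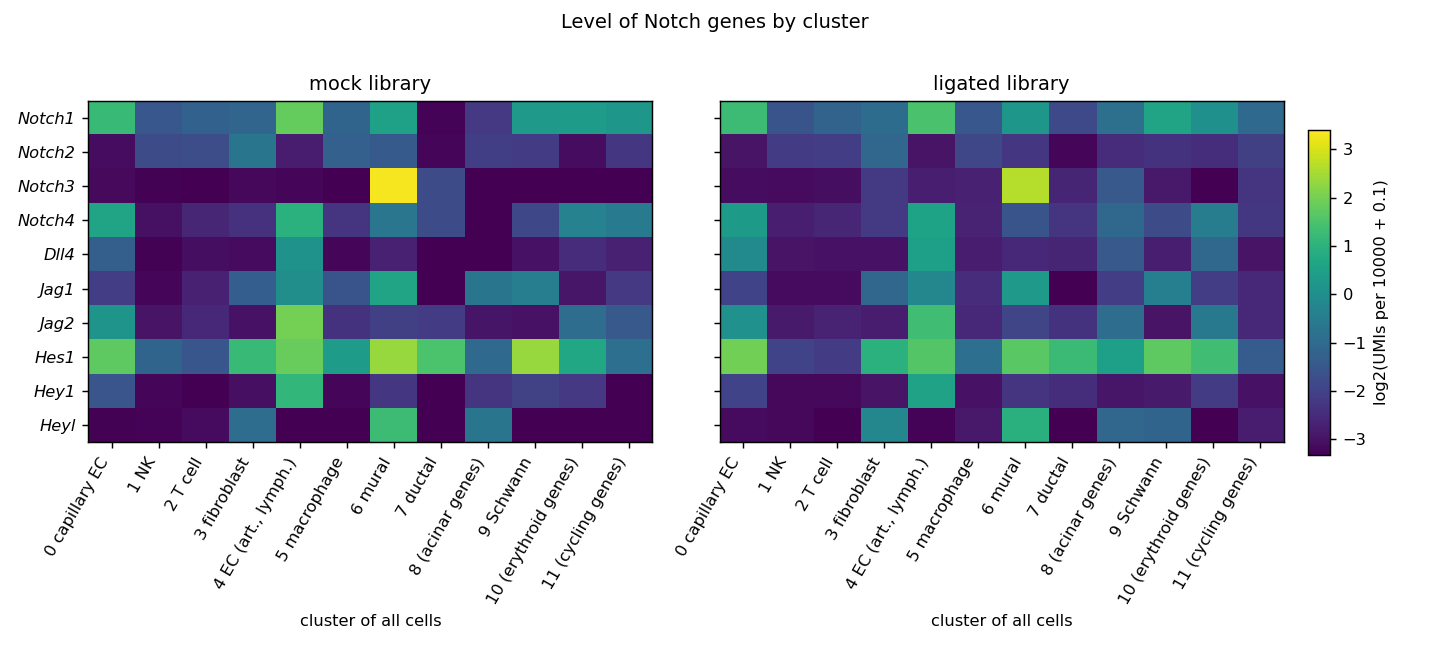
Mean level of the 10 genes in the 12 clusters of all cells, mock library left and ligated library right, as log2 of UMIs per 10000 plus 0.1 (colour; EC is endothelial, art. arterial, lymph. lymphatic). Notch3 is bright in mural cluster 6 alone, Dll4, Jag2 and Hey1 are brightest in cluster 4, and Hes1 is present in most clusters.

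Of 90 pairs of a member and a compared cluster of all cells, 27 were measurable, and 1 rose and 1 fell. The riser was Dll4 in cluster 0 and the faller was Hes1 in macrophage-like cluster 5. Of 30 pairs in the subset, 15 were measurable, and 1 rose (Dll4 in endothelial-like cluster 3) and 1 fell (Notch4 in mural-like cluster 2). None of these 4 passed with a pseudocount of 1, a minimum of 2 or a size of 2, and Hes1 in cluster 5 and Dll4 in subset cluster 3 rested on fewer than 100 mock cells. The share past the rule was thus 7.41% of measurable pairs in all cells and 13.3% in the subset. Among all measurable genes the share past the rule was 4.26% in cluster 0, where 1 of 5 members passed, and 6.51% in cluster 5, where the only measurable member passed. It was 7.92% in cluster 3 (0 of 3 members), 3.97% in cluster 4 (0 of 7), 7.39% in cluster 6 (0 of 6), 24.9% in ductal-like cluster 7 (0 of 1) and 23.6% in cluster 10, unnamed and led by erythroid genes (0 of 4). It was 2.12% in cluster 1 and 3.01% in cluster 2, where no member was measurable. In the subset it was 8.04% in fibroblast-like cluster 0 (0 of 3), 6.36% in cluster 2 (1 of 6) and 8.45% in cluster 3 (1 of 6). The members' 7.41% in all cells lay within the range of these shares, and their 13.3% in the subset, which is 2 of 15 pairs, lay above its range. Their median difference was near or below that of all genes. In cluster 6 the members' median was -0.50 against -0.08 for all measurable genes, in cluster 4 it was -0.34 against -0.01, and in cluster 0 it was 0.06 against 0.01. In cluster 10 the median of all genes was itself shifted to 0.56, and that of the members was 0.10.

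**Figure D2:**
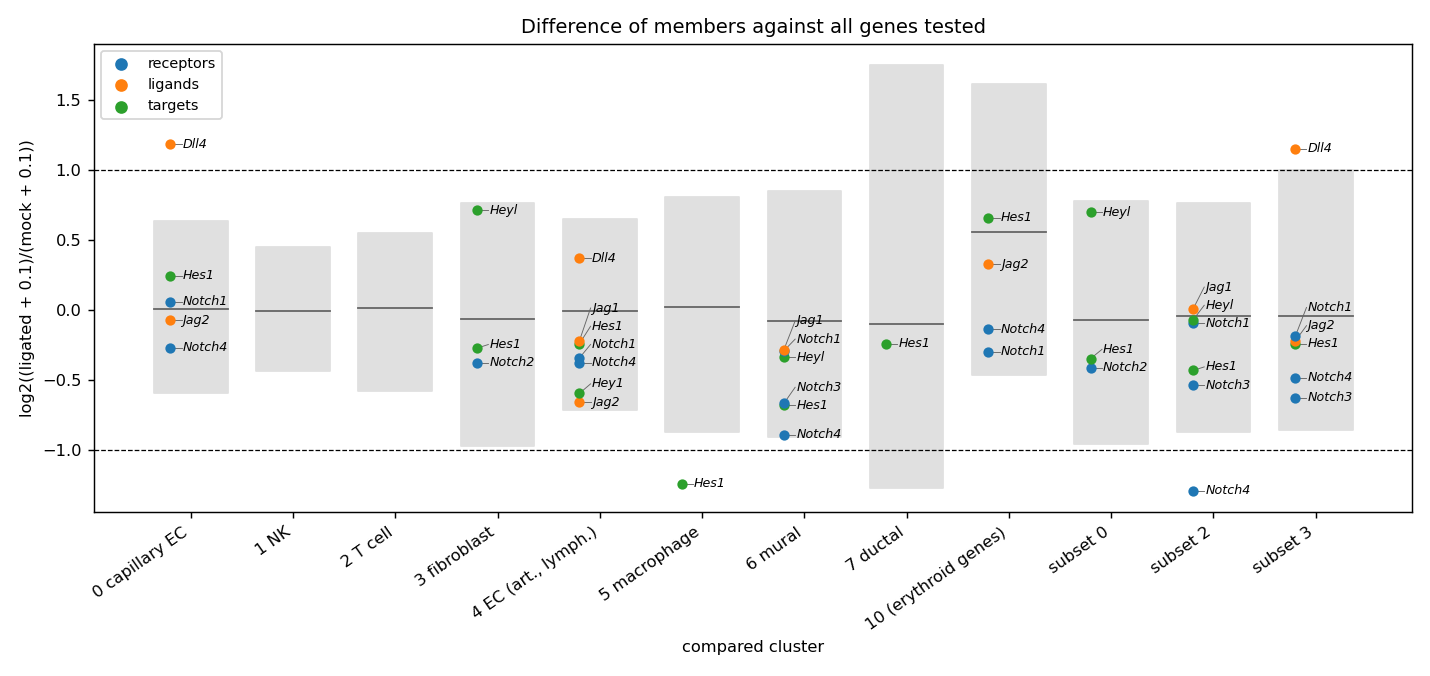
Ligated against mock difference of each measurable member (points, coloured by role, joined to their names by thin lines) in the 12 compared clusters, over the 5th to 95th percentile of all measurable genes (grey bars) and their median (grey line). Dashed lines mark a difference of 1 in either direction. Dll4 lies above the upper line in cluster 0 and subset cluster 3, and Hes1 in cluster 5 and Notch4 in subset cluster 2 lie below the lower one.

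Among the ligands, Dll4, the Delta-like ligand of endothelial cells, was the one that rose. In capillary endothelial-like cluster 0 it was 0.308 in the mock and 0.827 in the ligated library, 2.69-fold higher (difference 1.18), and 98.0% of the measurable genes there had a lower difference. Before subtraction of the other-type share, the ligated value was above the mock value in 9 of 9 compared clusters of all cells and 3 of 3 of the subset. After it, the difference was -0.17 in cluster 2, -0.11 in cluster 3 and -0.36 in cluster 6. It was then 0.0 in clusters 5 and 7 and in subset clusters 0 and 2, and 0.09 in cluster 1. In cluster 4, where the gene was highest, Dll4 was 0.968 mock and 1.28 ligated (0.37), short of the rule. In subset cluster 3, endothelial-like cells with 260 ligated and 82 mock members, it rose from 0.285 to 0.756 (1.15). In cluster 10, which also carried endothelial markers, it was 0.0802 mock and 0.385 ligated, under the minimum level. In both libraries of every other compared cluster Dll4 was at or below 0.0683.

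Other values moved along with Dll4 in cluster 0. The summed capillary markers (Gpihbp1, Cd36, Rgcc, Fabp4 and Car4) were 195.6 mock and 78.1 ligated, with 4 of 5 lower in the ligated library. The summed arterial markers were 3.55 mock and 4.30 ligated, with 7 of 7 higher in the ligated library. The general endothelial markers summed to 160.2 mock and 131.3 ligated, but 5 of 9 were higher in the ligated library, among them Pecam1 (14.5 mock and 18.3 ligated). The part of these in the Dll4 value was not tested. After subtraction of the other-type share, the Dll4 difference in cluster 0 was 1.17. In subset cluster 3 the fibroblast markers summed to 19.7 mock and 66.1 ligated, with 7 of 8 higher in the ligated library. The endothelial markers there summed to 146.6 and 93.0, with 6 of 9 higher in the mock library, and the Dll4 difference after subtraction was 1.13.

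Dll4 lies on chromosome 2 at 119325784 to 119335962 (mm10, plus strand, protein coding), and an annotated gene on the opposite strand, Gm14207, overlaps its exons. How the counting treated strand is not given in the sources used here, so reads of the pair may not have been told apart. The RefSeq promoter table (GRCm38.p6) held 7 of the 10 members. The 250 bases before the start of Dll4 are printed as the promoter of the ligand that rose, and those of Notch3 beside them as the promoter of the most cluster-restricted receptor. Capitals mark GGGCGG on either strand, the GC box bound by Sp1-family factors.
Dll4, chr2:119325534-119325783, plus strand: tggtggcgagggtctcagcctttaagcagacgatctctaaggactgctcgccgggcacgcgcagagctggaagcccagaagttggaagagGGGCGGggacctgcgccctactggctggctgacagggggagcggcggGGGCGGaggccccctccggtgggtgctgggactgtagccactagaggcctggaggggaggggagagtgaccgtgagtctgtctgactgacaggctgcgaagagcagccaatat
Notch3, chr17:32166891-32167140, minus strand: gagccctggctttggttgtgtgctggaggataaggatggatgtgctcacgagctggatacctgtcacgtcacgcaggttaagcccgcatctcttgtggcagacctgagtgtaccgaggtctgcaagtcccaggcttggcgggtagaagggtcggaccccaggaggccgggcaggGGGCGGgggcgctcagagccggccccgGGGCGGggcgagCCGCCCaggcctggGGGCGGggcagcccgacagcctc
The Dll4 stretch held 2 GC boxes and that of Notch3 held 4. In all, 5 of the 7 members' stretches held at least 1, against 32.7% of 32851 promoters of the same length. TGGGAA, the core that RBPJ binds, was in 0 of the 7 on either strand and in 21.6% of all promoters. CACGTG, an E-box, was in 0 of 7 and in 6.02%. These counts describe letters in this window and are silent on binding by any factor.

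Jag2, a Jagged ligand made by arterial endothelium, was 3.87 mock and 2.42 ligated in cluster 4 (difference -0.66). In cluster 0 both libraries had nearly the same level, 1.02 mock and 0.965 ligated (-0.07). Subset cluster 3 gave 1.11 and 0.937 (-0.22). Jag2 thus did not share the direction of Dll4 in the endothelial clusters, although both genes were highest in the same cluster. In no compared cluster did it pass the rule. Jag1, the Jagged ligand found in both endothelial and mural cells, was 1.41 mock and 1.14 ligated in mural cluster 6 (-0.28). It was 0.900 and 0.759 in cluster 4 (-0.22). In the mural cells of the subset the libraries were almost equal at 1.46 mock and 1.47 ligated. In fibroblast-like cluster 3 it was 0.303 mock and 0.368 ligated, below the minimum level.

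**Figure D3:**
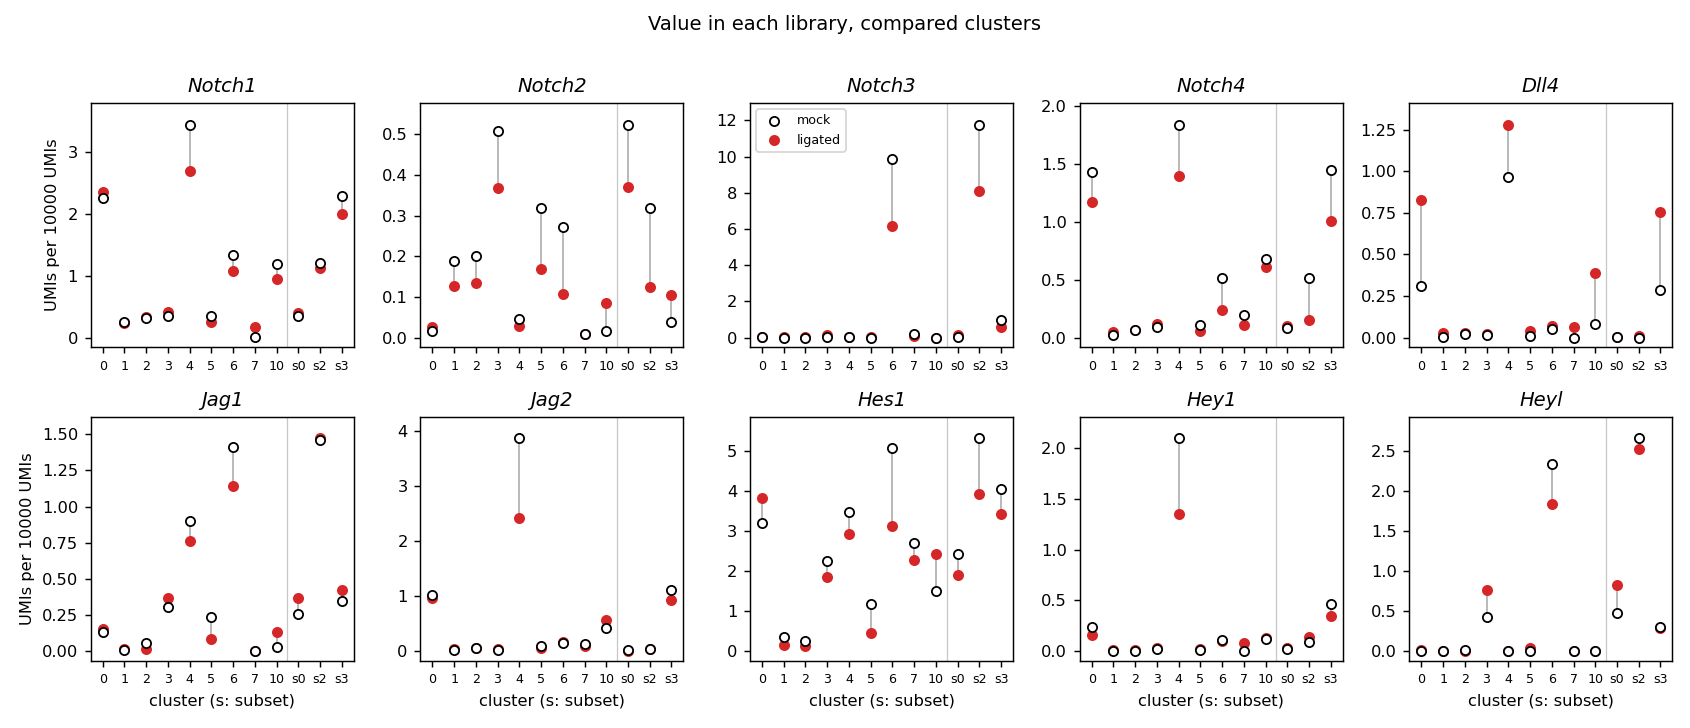
Level of each gene in UMIs per 10000 (vertical axis, each panel on its own scale) in the mock (open) and ligated (red) library for the 9 compared clusters of all cells and the 3 of the subset (s0, s2, s3, right of the grey line). The red Dll4 points of clusters 0, 4, 10 and s3 lie above the open ones, and the red points of Notch3 in clusters 6 and s2 and of Hey1 and Jag2 in cluster 4 lie below.

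None of the 4 receptors changed past the rule in clusters of all cells. Notch1, the receptor of endothelial cells and of many immune cells, was 2.25 mock and 2.35 ligated in cluster 0 (0.06). In cluster 4 it was 3.44 and 2.69 (-0.34). In mural cluster 6 it was 1.33 and 1.07 (-0.29), and in the endothelial-like cells of the subset 2.28 and 1.99 (-0.19). The order of these clusters of all cells, 4 above 0 above 6, was the same in both libraries. Natural killer-like cells held 0.257 mock and 0.236 ligated, and T cell-like cells 0.323 and 0.337. Exons of 0610009E02Rik and Gm13568 overlap Notch1 on the opposite strand.

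Notch4, a receptor largely restricted to endothelium, was lower in the ligated library wherever it was measurable. It lies on chromosome 17 at 34564268 to 34588503 (mm10, plus strand) with no overlapping exon of another gene. It was 1.43 mock and 1.17 ligated in cluster 0 (-0.27), 1.84 and 1.40 in cluster 4 (-0.37), and 1.45 and 1.01 in subset cluster 3 (-0.48). In the mural-like cells of the subset it fell from 0.515 to 0.152 (-1.29), a 3.39-fold difference from 128 mock and 274 ligated cells. The mock value there was only 36.7 times, and the ligated value 13.9 times, what 1 UMI in 1 cell of the recovered median depth would give. In mural cluster 6 of all cells, with 161 and 420 cells, Notch4 was 0.519 mock and 0.234 ligated (-0.89). Those cells also carried endothelial markers. They summed to 18.5 mock and 13.7 ligated in cluster 6, with 5 of 9 higher in the mock library. In the subset's mural cells they summed to 7.12 and 6.02, but 7 of 9 were higher in the ligated library, among them Pecam1 (0.0955 mock and 0.228 ligated) and Cdh5, which was listed at 0 in the mock library. Their part in the Notch4 values was not tested.

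Notch3, the mural-cell receptor, had the most restricted pattern. It lies on chromosome 17 at 32120820 to 32166852 (mm10, minus strand), where exons of Gm17276 overlap it on the opposite strand. Over both libraries it was 7.21 in cluster 6 and no more than 0.243 in any other cluster of all cells. In cluster 6 it was 9.87 mock and 6.19 ligated (-0.66), and in the mural cells of the subset 11.8 and 8.09 (-0.53), both short of the rule. In endothelial-like subset cluster 3 it was 0.992 and 0.608 (-0.62). The pericyte markers there summed to 14.6 mock and 8.73 ligated, with 5 of 6 higher in the mock library. The smooth muscle markers there summed to 4.54 and 1.55, with 4 of 5 higher in the mock library. Their part in the Notch3 value was not tested. Notch3 was thus lower in the ligated library in each of the 3 clusters where it was measurable, by a factor of 1.45 to 1.63. These clusters are not independent, since the subset's cells are also in the clusters of all cells. In fibroblast-like cluster 3 the order was the other way at a low level, 0.0113 mock and 0.122 ligated.

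The mural clusters differed in other markers as well. In cluster 6 the pericyte markers (Rgs5, Kcnj8, Abcc9, Cspg4, Higd1b and Vtn) summed to 123.9 mock and 87.6 ligated, with 5 of 6 lower in the ligated library. The smooth muscle markers (Acta2, Myh11, Tagln, Cnn1 and Des) summed to 86.7 and 42.8, with 5 of 5 lower. The basal and myoepithelial markers (Krt5, Krt14, Trp63 and Krt17) were higher in the ligated library, 4.77 against 1.22. In the mural cells of the subset those epithelial markers were near 0 (0 mock, 0.186 ligated), and there the Notch3 difference was -0.53. The pericyte markers in these cells summed to 142.9 mock and 114.4 ligated and the smooth muscle markers to 76.5 and 29.1. Whether Notch3 moved apart from these marker levels was not tested.

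Notch2, expressed at low levels by fibroblasts, myeloid cells and lymphocytes, was measurable only in the fibroblast-like clusters. It was 0.507 mock and 0.368 ligated in cluster 3 (-0.37), and 0.524 and 0.370 in subset cluster 0 (-0.41). Below the minimum, macrophage-like cells had 0.319 mock and 0.170 ligated. Mural cluster 6 had 0.271 and 0.108. Mock values were above ligated values in 7 of 9 compared clusters of all cells. Gm42820 overlaps exons of Notch2 on the same strand, so reads may have been shared.

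Hes1, a repressor gene that answers to Notch and to other pathways, was the most widely expressed target. In the macrophage-like cells of cluster 5 it fell from 1.19 mock to 0.445 ligated (-1.24), 2.67-fold lower. Only 77 mock cells against 680 ligated cells stood behind this. The macrophage markers in the same cluster summed to 142.2 mock and 173.6 ligated, with 6 of 7 higher in the ligated library. Endothelial markers there summed to 9.59 mock and 7.07 ligated (6 of 9 higher in mock), capillary markers to 9.10 and 4.43 (3 of 5 higher in mock), and erythroid markers to 19.2 and 8.41 (3 of 6 higher in mock). Their part in the Hes1 value was not tested. After subtraction of the other-type share the difference was -2.15. Hes1 lies on chromosome 16 at 30064384 to 30067796 (mm10, plus strand), with no overlapping exon of another gene. Lymphoid clusters lay under the minimum in the same direction, at 0.351 mock and 0.154 ligated in natural killer-like cells and 0.251 and 0.128 in T cell-like cells.

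In the vessel clusters Hes1 did not pass the rule. It was 3.20 mock and 3.82 ligated in cluster 0 (0.25), the cluster in which Dll4 rose, and 3.46 and 2.92 in cluster 4 (-0.24). In mural cluster 6 it was 5.06 and 3.12 (-0.68), and 5.31 and 3.92 in the mural cells of the subset (-0.43). Fibroblast-like cluster 3 had 2.25 and 1.85 (-0.27), and ductal-like cluster 7 had 2.70 and 2.28 (-0.24). In 7 of 9 compared clusters of all cells and 3 of 3 of the subset the mock value was the higher one. The exceptions were cluster 0 and cluster 10, where it was 1.50 mock and 2.43 ligated (0.66), close to the median shift of 0.56 of that cluster's genes.

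Hey1, a target known from arterial endothelium, was measurable in cluster 4 alone, at 2.09 mock and 1.35 ligated (-0.59). The arterial markers of that cluster were level between libraries in sum, 28.8 mock and 28.9 ligated, though 5 of 7 were higher in the mock library. Capillary markers in cluster 4 summed to 108.6 mock and 62.5 ligated (4 of 5 higher in mock) and venous markers to 5.01 and 1.99 (4 of 4 higher in mock). Lymphatic markers summed to 9.08 and 10.4, but 3 of 5 were higher in mock, and the larger ligated sum went with Ccl21a (5.73 mock and 7.56 ligated). The part of these in the Hey1 value was not tested. In cluster 0 Hey1 was 0.242 mock and 0.156 ligated. Heyl, a target of mural cells, was 2.34 mock and 1.83 ligated in cluster 6 (-0.34) and 2.66 and 2.52 in the mural cells of the subset (-0.07). In fibroblast-like cells the order was reversed. Cluster 3 had 0.427 mock and 0.764 ligated (0.71), and subset cluster 0 had 0.473 and 0.831 (0.70), a ratio of 1.79 and of 1.75 and short of the rule. Mural markers in cluster 3 were mixed. The pericyte markers summed to 1.77 mock and 1.66 ligated, with 3 of 6 higher in each library. Rgs5 was among those higher in the ligated one (0.0295 mock and 0.226 ligated). Abcc9 was among those higher in the mock one (0.781 mock and 0.412 ligated). The smooth muscle markers summed to 0.431 mock and 0.924 ligated, with 3 of 5 higher in the ligated library, among them Acta2 (0.0718 and 0.304) and Tagln (0.0389 and 0.396). Myh11 was higher in the mock library (0.0792 mock and 0.0469 ligated). Their part in the Heyl values was not tested.

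Clusters with fewer than 50 mock cells give levels but no comparison. In Schwann-like cluster 9, with 271 ligated and 17 mock cells, the joint levels were 3.31 for Hes1, 1.41 for Notch1 and 0.646 for Jag1, while Dll4 was 0.0469 and Jag2 0.0270. Cluster 8, unnamed and led by acinar genes, had 1.20 for Hes1, and all other members there were below 0.5. The other-type share of its 264 ligated cells was 104.8%. For Hes1 that share came to 1.77, above the ligated value of 1.28. Cluster 11, unnamed and led by cycling genes, had 0.575 for Notch1 and 0.331 for Hes1. These joint values pool unlike cells. Endothelial markers there summed to 60.1 in 22 mock and 7.73 in 59 ligated cells (8 of 9 higher in mock). Notch1 was 1.07 mock and 0.389 ligated. In the small fibroblast-like cluster 4 of the subset, with 17 ligated and 10 mock cells, Notch2 was 0.891 and Jag1 0.873, and 5 members were listed at 0. In subset cluster 1, unnamed and led by lymphocyte genes, Hes1 was 0.718 and no other member reached 0.5.

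Of 58 further genes of the pathway on lists set out by role, 54 had a row and Dll3, Hes2, Hes3 and Helt had none. Among 165 measurable pairs of such a gene and a cluster of all cells, 5 rose and 8 fell, and among 71 pairs in the subset 2 rose and 3 fell. As a share of pairs these counts lie in the range of the shares for all genes given above. The Fringe enzymes, which add sugars to Notch and so change which ligand it answers to, moved in opposite directions. Lfng fell in cluster 0 from 1.31 to 0.523 (-1.18), in cluster 4 from 0.731 to 0.262 (-1.20), in macrophage-like cluster 5 from 0.800 to 0.256 (-1.34) and in subset cluster 3 from 1.23 to 0.351 (-1.56). Mfng rose in cluster 0 from 0.188 to 0.813 (1.67) and in subset cluster 3 from 0.143 to 0.661 (1.65). Before subtraction of the other-type share, the ligated Mfng value was the higher one in 9 of 9 compared clusters of all cells and 3 of 3 of the subset. Poglut1, which adds glucose to Notch, fell in subset cluster 3 from 0.686 to 0.256 (-1.14). The fall in cluster 5 rested on 77 mock cells, and the changes in subset cluster 3 on 82. In cluster 5 endothelial markers summed to 9.59 mock and 7.07 ligated (6 of 9 higher in mock). Capillary markers there summed to 9.10 and 4.43 (3 of 5 higher in mock). Over both libraries Lfng was highest in cluster 0 (0.873). The part of these markers in the Lfng value of cluster 5 was not tested.

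Downstream genes of opposite direction also moved in cluster 0. Nrarp, a Notch target that feeds back on the pathway, rose from 0.163 to 0.561 (1.33). Ccnd1, the cyclin D1 gene, which Notch and many other signals drive, fell from 4.45 to 1.75 (-1.30). Ccnd1 also fell in cluster 4 from 2.99 to 0.715 (-1.92), in mural cluster 6 from 2.48 to 1.14 (-1.06) and in subset cluster 3 from 3.36 to 1.07 (-1.56). In cluster 0, then, Dll4, Mfng and Nrarp were higher and Lfng and Ccnd1 lower in the ligated library, while Notch1, Notch4, Jag2 and Hes1 did not pass the rule there. Exons of Gm38287 overlap Nrarp, and those of LTO1 overlap Ccnd1, on the opposite strand.

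**Figure D4:**
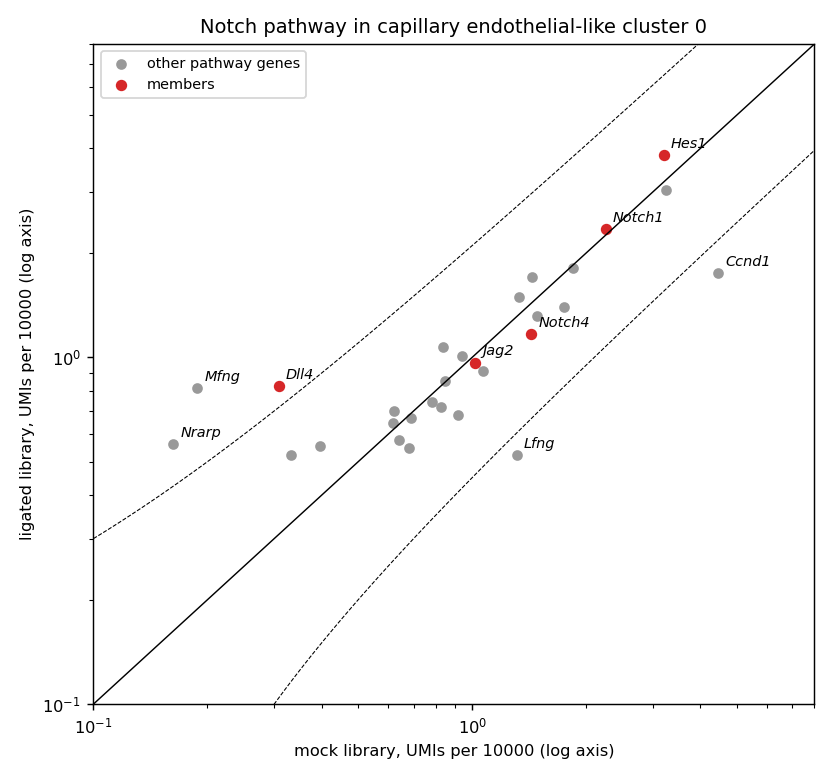
Levels of measurable Notch pathway genes in capillary endothelial-like cluster 0, mock library on the horizontal and ligated library on the vertical axis (UMIs per 10000, both log axes), members in red and genes of the other lists in grey. The solid line marks equality and the dashed lines a difference of 1. Dll4, Mfng and Nrarp lie above the band and Lfng and Ccnd1 below it.

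The other pathway genes past the rule were few. Dlk1, a non-canonical ligand, rose in mural cluster 6 from 0.158 to 0.561 (1.36) and in the mural cells of the subset from 0.151 to 0.813 (1.86). Adam17, a protease that can cut Notch, fell in cluster 4 from 1.00 to 0.367 (-1.24). Neurl1b, a ubiquitin ligase for Notch ligands, fell in cluster 6 from 0.615 to 0.252 (-1.02). Neurl3 rose in cluster 10 from 0.119 to 0.668 (1.81), where the median gene was at 0.56. Rbpj, which encodes the DNA-binding partner of Notch, rose in ductal-like cluster 7 from 0.218 to 0.537 (1.00, and 0.45 after subtraction of the other-type share). The 14 genes of the nuclear complex and its corepressors gave 81 measurable pairs in all cells, of which that of Rbpj was the only one past the rule. The 10 protease genes gave 38 pairs with 1 past it. Hes5, the other classical Hes target, reached no more than 0.00888 in any cluster, and Hey2 no more than 0.318.

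The mean over a whole library also depends on how many cells of each type it held. Endothelial clusters 0 and 4 made up 61.7% of mock cells (exact Clopper-Pearson 95% interval 60.2 to 63.1) and 30.5% of ligated cells (29.7 to 31.4), after the depletion of other cells. Such intervals cover counting error only. Over all cells Notch4 was 0.962 mock and 0.433 ligated (-0.99), Jag2 0.814 and 0.412 (-0.84), Hey1 0.258 and 0.120 (-0.70) and Notch1 1.61 and 0.995 (-0.64). When the ligated clusters were weighted by the mock library's cell numbers, the differences became -0.27 for Notch4, -0.17 for Jag2, -0.38 for Hey1 and 0.01 for Notch1. Hes1 went from -0.57 to 0.09. Dll4, already higher in the ligated library (0.231 mock and 0.303 ligated, 0.28), moved up as these did, to 0.99 with the mock mix. Notch3 was -0.44 and -0.45 by these weightings, and mural cells were 3.83% of mock (3.27 to 4.46) and 3.68% of ligated cells (3.34 to 4.04).

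The clusters that held each gene's summed expression shifted accordingly. The endothelial clusters held 97.4% of mock and 90.1% of ligated Dll4, 93.9% and 84.7% of Notch4, 96.1% and 87.9% of Jag2, and 90.0% and 73.6% of Notch1. Mural cluster 6 held 95.5% and 85.9% of Notch3. The widest shift was that of Heyl. Its mural share was 78.3% in the mock and 39.5% in the ligated library, and its fibroblast share 16.7% and 45.0%, with fibroblast-like cells at 4.48% of mock (3.87 to 5.15) and 10.1% of ligated cells (9.53 to 10.6). For Notch2, natural killer-like and T cell-like cells held 41.6% and 45.2%.

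**Figure D5:**
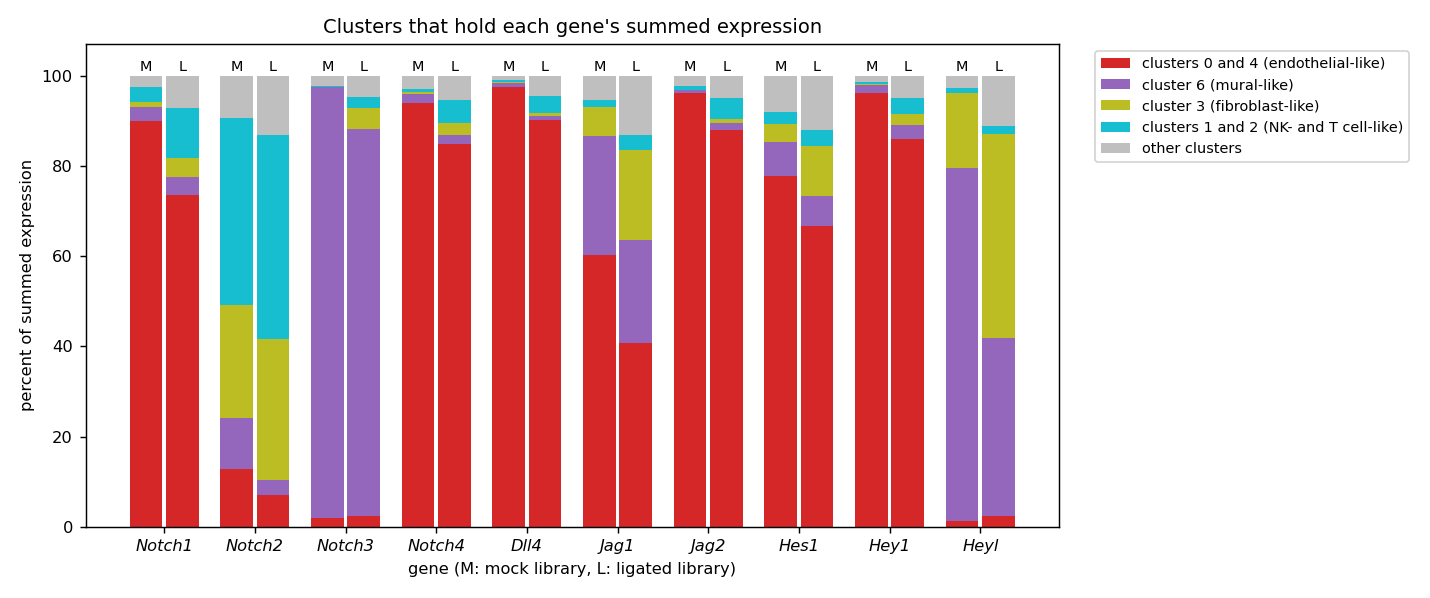
Share of each gene's summed expression (cluster mean times recovered cell number, in percent) held by groups of clusters, in the mock (M) and ligated (L) library. Notch3 stays mostly mural, Dll4, Notch4, Jag2 and Hey1 mostly endothelial, and the fibroblast share of Heyl grows from 16.7% to 45.0%.

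The genes with the most similar layout over the 12 clusters were looked up for the 9 members that reached 0.5 in any cluster of both libraries together, by Pearson correlation of log2(value + 0.1) among 6652 genes. With 12 clusters of unequal size that come from the same 2 libraries, these are descriptions. Dll4 was most like Wscd1 (0.99), and Dll4 was itself among the 3 genes most like Jag2 (0.98). Notch4 was most like Plcb1 (0.99) and Id1 (0.99), and Hey1 most like the arterial gene Sema3g (0.97). Notch3 was most like Rgs4 (0.99) and the pericyte gene Higd1b (0.99), and Heyl most like Meg3 (0.99). Hes1 was most like Tspan17 (0.99), Notch1 most like 4931406P16Rik (0.97) and Jag1 most like Marveld1 (0.94). By Spearman correlation 23 of the 27 genes so listed were not among the top 3.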

How the data were processed

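Droplet single-cell libraries of 1 ligated and 1 mock group were analysed from 4 tables of cluster means deposited by the authors. Cell Ranger 6.0.1, Seurat and the mm10 build are named in the submitters' processing notes; the filters on cells, the clustering and any doublet removal are not given in the sources used here, and doublets were not called. The deposited values are on another scale than counts or CPM: linear means over a cluster's cells of UMIs per 10000, read from the values since every column sums to 10000. No counts were used, so no model was fitted. Tables were read with pandas 2.3.3 and numpy 2.4.6 and scipy 1.17.1 under Python 3.11.15.

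Joint values are weighted means of the split values (largest residual 9.2e-08), and the weights gave the cell numbers. Among the gene names of the split tables, 21 had become dates and were restored from gene order. Of all genes, 3150 were above 0 only in the ligated and 684 only in the mock library. Measurable genes had a value above 0 somewhere in both. The procedure was tested on simulated data. There the genes given a change were at higher levels than the called members, and background did not differ between the libraries. That test therefore cannot speak for the calls of low genes made here. Gene positions come from GENCODE M21.

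The other-type share is the median, over the markers of all other cell types, of cluster value over library mean. The members were taken by name, but which genes to describe, the lists and the thresholds were chosen with earlier results of these data known. Named genes are the members, list genes past the rule, and for each member the 3 genes with the most similar layout, of which the nearest are printed. Hes5 and Hey2 were named after their values were seen. Cluster names were also given after the markers were seen. Alternatives were other pseudocounts, minimum levels, sizes, cell minimums, centring, subtraction and cell mixes.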

Additional observations from a re-analysis of the deposited data

How the results depend on the processing

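Counts of pairs past the size rule depended on its settings. Members that rose in all cells numbered 1, and 0 with a pseudocount of 1, a minimum level of 2 or a size of 2, 3 with no minimum and 2 with all 12 clusters. Members that fell there numbered 1, and 0 with a pseudocount of 1, a minimum of 2, a size of 2 or clusters of at least 100 cells, 2 with a pseudocount of 0.01 and 4 with all clusters. In the subset the riser was lost (0) with a pseudocount of 1, a minimum of 2, a size of 2 or at least 100 cells, and the faller (0) with the first 3 of these. Other pathway genes rose in 5 pairs of all cells, and in 0 with a pseudocount of 1, a minimum of 2 or a size of 2, 10 with a pseudocount of 0.01, 14 with no minimum and 26 with all clusters. They fell in 8 pairs, and in 1 with a pseudocount of 1, 3 with a minimum of 2 and 0 with a size of 2.

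With a pseudocount of 1 the differences were 0.48 for Dll4 in cluster 0, -0.60 for Hes1 in cluster 5, -0.40 for Notch4 in subset cluster 2 and 0.45 for Dll4 in subset cluster 3. Notch4 in mural cluster 6 passed the rule with a pseudocount of 0.01 (-1.11). Centring on the median gene, or subtracting the other-type share, moved none of the 6 counts by over 1.5 times, and neither changed the sign of a called value. Other pseudocounts, minimum levels, sizes and cell minimums cannot change a sign. With every gene kept, also those above 0 in 1 library only, the share past the rule was 6.6% in cluster 0, 4.56% in cluster 1, 5.34% in cluster 2 and 6.1% in cluster 4, and the other 8 clusters stayed within 1.5 times. No paired analysis was possible because each group was 1 library, and for the same reason no library could be left out.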
